A study of Mus musculus with 2 samples.

Results

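Cadherins and non-clustered protocadherins were followed through the cell classes of the mouse hippocampus in a single-nucleus RNA data set. Genes were taken by symbol, as Cdh or Pcdh followed by a number (with or without a final x), which leaves out the clustered Pcdha, Pcdhb and Pcdhg genes. Of 35 such symbols among the 55357 genes of the deposited tables, 31 reached the required 50 unique molecular identifiers (UMIs, each one captured RNA molecule) summed over all barcodes of both libraries, 20 of them named Cdh and 11 named Pcdh. The last gene inside this minimum was Cdh3 with 65 UMIs, and the genes outside it were Cdh26 with 12, Pcdh12 with 5, Cdh17 with 4 and Cdh16 with 3.

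The question of the study was the effect of losing Bcas2, a splicing protein, on the hippocampus. It provided 2 libraries of nuclei from hippocampal tissue of Bcas2F/F mice, in which Bcas2 is flanked by loxP sites. For one library the mice were injected with AAV2/9-Syn-cre, an adeno-associated virus that carries Cre recombinase driven by the promoter of synapsin, a gene of neurons, and its genotype label reads Bcas2 knockdown. For the other the mice were injected with AAV-vehicle, and its genotype label reads WT, although its title names floxed mice. The age and sex of the animals, the number of mice pooled in each library and the time after injection were not stated in the labels. With 1 library per group there was no spread between animals to test against, so no p-value is given, and every interval below is a 95% interval that covers counting error only.

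Cadherins are transmembrane proteins that hold neighbouring cells together through calcium-binding repeats outside the cell. Classical type I and type II cadherins bind catenins inside the cell, which link them to actin, and different type II cadherins on different neurons help match synaptic partners in the hippocampus. The delta protocadherins, the main non-clustered group, adhere weakly and do not use the catenins, and they act in axon growth and synapse formation. Cdh23 and Pcdh15 are long members with many repeats, best known as the 2 partners of the tip link that opens the channels of inner ear hair cells.

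The library labelled knockdown held 16693 barcodes with 90594923 UMIs and the control 12621 barcodes with 41781481 UMIs, and 56 barcode sequences occurred in both. After filters and doublet removal 12359 and 11196 nuclei remained, with medians of 5796 and 2485 UMIs. They formed 31 clusters, which were found without the cadherin genes and named from lists of marker genes, and the names end in "-like" for that reason. Clusters without a name held 1923 nuclei (15.6%) of the library labelled knockdown and 263 (2.35%) of the control. Granule cells of the dentate gyrus (DG) and pyramidal cells of CA1 and CA3 were found, as the tissue label says, together with clusters that carried markers of septum, deep-layer cortex, choroid plexus and pineal gland. Bcas2 itself stood in DG granule-like nuclei at 33.6 CPM (UMIs of the gene per 1000000 UMIs of the class) in the library labelled knockdown and 34.1 in the control. It was higher in the library labelled knockdown, with intervals apart, in oligodendrocyte-like (50.7 and 32.1 CPM), microglia-like (62.3 and 29.7 CPM), astrocyte-like (36.7 and 14.8 CPM) and Cajal-Retzius-like nuclei (90.3 and 26.2 CPM). Whether the counted end of its transcript lies inside the floxed part is not given, so this checks no label, and the library is named by its label throughout. Syt1, a neuronal synaptic vesicle gene, stood between 461 and 738 CPM in the oligodendrocyte-, microglia-, astrocyte-, oligodendrocyte precursor (OPC)- and fibroblast-like nuclei of the library labelled knockdown and between 46.5 and 90.3 CPM in those of the control, against 2584 and 2676 CPM in DG granule-like nuclei.

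Within the classes that could be compared, most members had their highest level in the same class in both libraries. Levels were compared over the 6 classes with at least 100 nuclei in each library: oligodendrocyte-like (2086 nuclei in the library labelled knockdown, 7075 in the control), DG granule-like (2046 and 551), microglia-like (286 and 1093), astrocyte-like (548 and 668), OPC-like (331 and 663) and fibroblast-like (105 and 217). Of 25 members with at least 50 UMIs in these classes of each library, 22 had their highest level in the same class in both, beside 67.2% of the 14400 genes that met the same minimum. For 11 members that class was OPC-like, for 6 DG granule-like, for 2 astrocyte-like, for 2 oligodendrocyte-like and for 1 microglia-like, and none was highest in fibroblast-like nuclei. Among the 11, Cdh11, Pcdh10 and Pcdh17 stood only 1.02- to 1.27-fold over the next class. Cdh22 stood 1.07-fold over it in the library labelled knockdown and 2.17-fold in the control. How all 14400 genes split over the classes was not counted. Classes outside the 6 held some members at higher levels, as given below for Cdh4, Cdh12, Cdh18 and Cdh22 among others. In 10 members the highest class stood at least 2-fold over the next in both libraries, beside 18.1% of all genes. By kind, the highest class was the same in 2 of 2 counted type I cadherins, 9 of 11 type II cadherins and 7 of 8 delta protocadherins. The other 3 of the 25, Cdh10, Cdh20 and Pcdh1, had different highest classes in the 2 libraries. The 6 members left out of the count for too few UMIs were Cdh1, Cdh3, Cdh5, Cdh7, Cdh15 and Pcdh18. Of these, Cdh1 and Cdh5 were highest in fibroblast-like nuclei in both libraries. Pcdh18 had its highest value there too, at 3.04 CPM (0.077 to 16.9) and 5.31 CPM (1.45 to 13.6). Both intervals held the level of the next class, so they do not rank it. The lack of members highest in that class therefore holds only for the 25 counted.

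**Figure D1:**
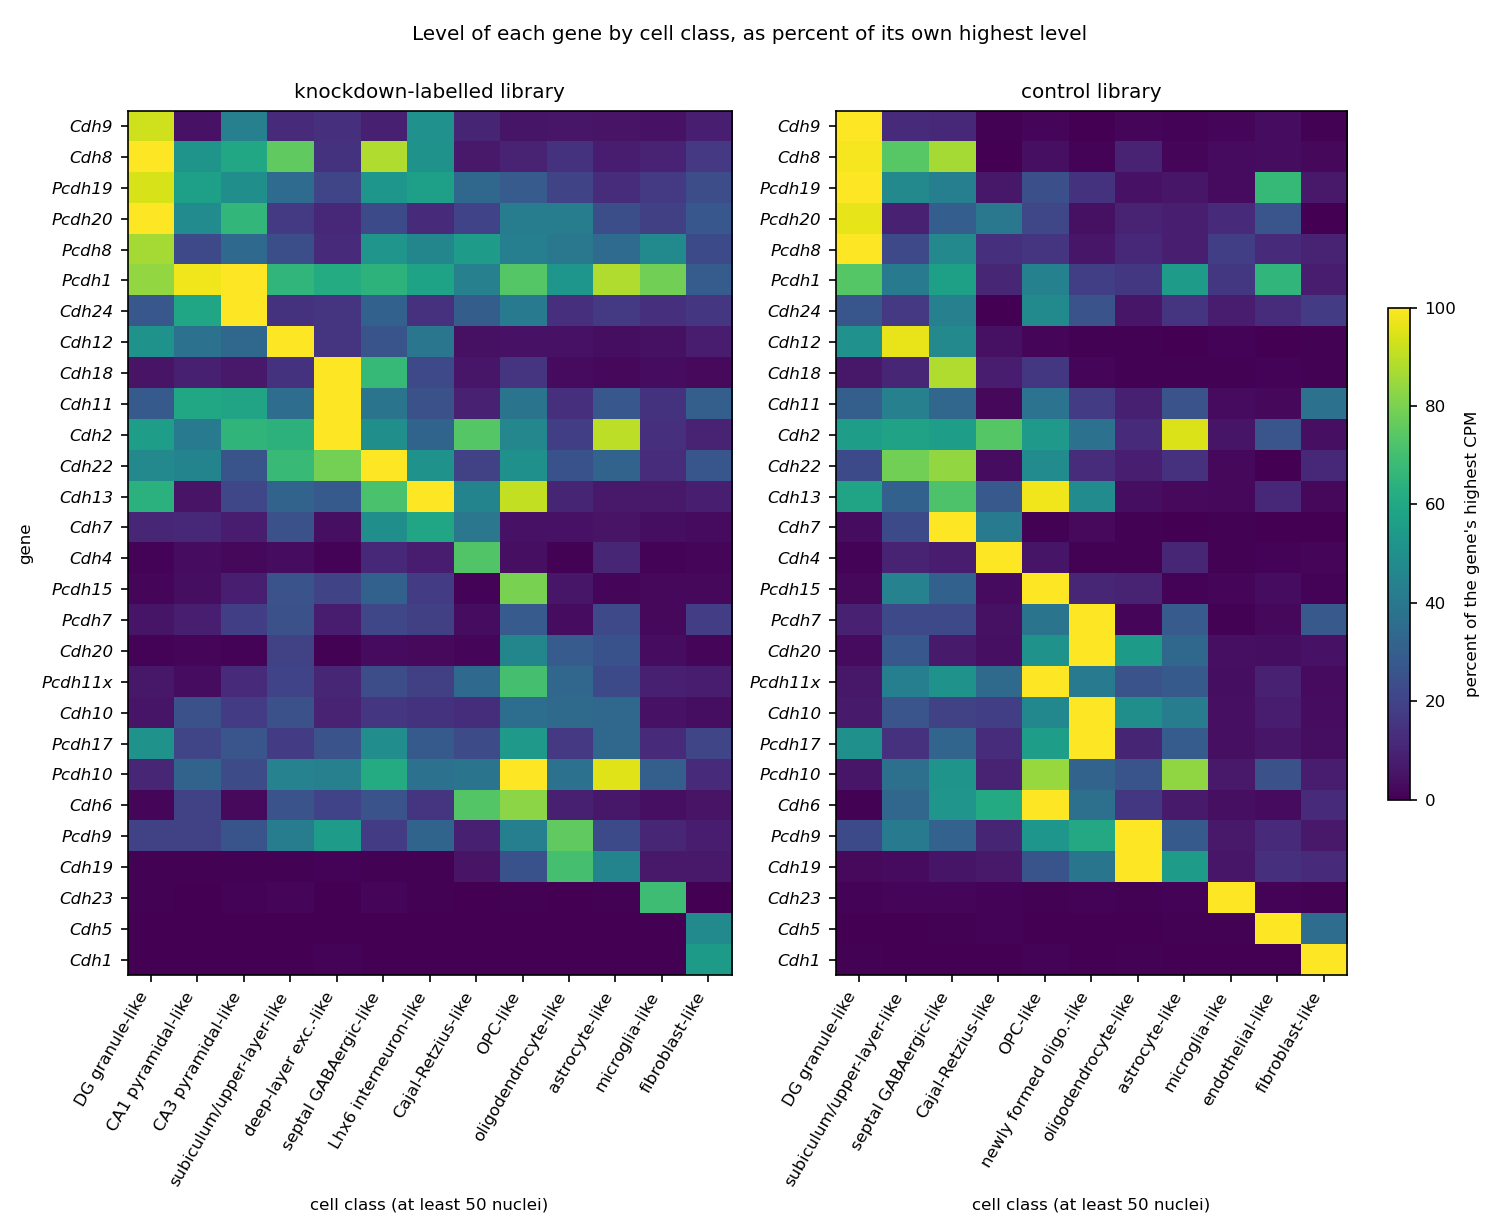
Level of each of 28 members, in rows, in every class with at least 50 nuclei, in columns, for the library labelled knockdown (left) and the control (right), coloured as percent of the highest CPM that gene reached in either library; 3 members under 10 CPM in every class are left out. Cdh23 is bright in microglia-like columns alone, Pcdh15 is brightest in OPC-like columns, and Cdh9, Cdh8, Pcdh19 and Pcdh20 are brightest in DG granule-like columns.

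Among type II cadherins, Cdh8, Cdh9 and Cdh12 marked the DG granule-like nuclei. Cdh9, which is known for its part in the synapses between DG axons and CA3 cells, stood at 701 CPM in the library labelled knockdown and 757 CPM in the control, and at 3.98 to 63.7 CPM in the other 5 compared classes. A Cdh9 UMI was found in 47.8% and 50.1% of DG granule-like nuclei thinned to 1000 UMIs each, against 4.00% and 0.750% of oligodendrocyte-like nuclei at the same depth. Cdh8 in DG granule-like nuclei stood at 566 and 559 CPM, and at 10.2 to 94.1 CPM in the other compared classes. For both genes every glial value was higher in the library labelled knockdown than in the control, and for both the DG granule-like level stood above all of them in both libraries.

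The upstream windows of Cdh8 and Cdh9 are printed because these genes share their main class yet differ in sequence just before the gene. Each is the 250 bases before the start of the gene in RefSeq (build GRCm38.p6, which is not the GRCm39 build of the counts), 5′ to 3′ on the strand of the gene. Cdh8 lies on the minus strand at chr8:99416472-99416721 and Cdh9 on the plus strand at chr15:16728665-16728914. Capitals mark matches, on either strand, to 4 short motifs: the GC box GGGCGG, the TATA box TATAAA, the ETS core GAGGAA and the SOX core ACAAAG.
Cdh8: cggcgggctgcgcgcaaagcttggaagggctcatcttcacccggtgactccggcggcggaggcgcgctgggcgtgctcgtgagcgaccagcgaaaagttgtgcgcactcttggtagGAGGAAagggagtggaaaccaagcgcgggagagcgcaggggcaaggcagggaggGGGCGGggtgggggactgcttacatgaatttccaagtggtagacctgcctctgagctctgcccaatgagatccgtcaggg
Cdh9: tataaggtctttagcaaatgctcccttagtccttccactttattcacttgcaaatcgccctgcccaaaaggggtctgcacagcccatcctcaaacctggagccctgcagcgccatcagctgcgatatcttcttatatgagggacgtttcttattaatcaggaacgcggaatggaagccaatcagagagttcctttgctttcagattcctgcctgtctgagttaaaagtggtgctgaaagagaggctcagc
The Cdh8 window held 20 CpG dinucleotides, 1 GC box and 1 ETS core, and the Cdh9 window held 6 CpG dinucleotides and no match. RefSeq windows were at hand for 21 members, 24 windows in all, with a median of 10.5 CpG dinucleotides beside 6 over all 32851 windows. The GC box occurred in 9 of the 24 and in 32.7% of all windows, the TATA box in 2 and in 12.4%, the ETS core in 8 and in 23.3%, and the SOX core in 4 and in 16.5%. A match describes the letters of the window and is not a binding site.

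Other neurons, compared less often because the control held few of them, carried the same 3 type II genes in a different order. Levels are given only where a class had at least 50 nuclei in the library. Cdh9 was 384 CPM in interneuron-like nuclei marked by Lhx6 (437 nuclei of the library labelled knockdown) and 330.1 CPM in CA3 pyramidal-like nuclei, but 35.8 CPM in CA1 pyramidal-like nuclei, where Cdh8 was 293 CPM. Cdh8 reached 499 and 489 CPM in septal GABAergic-like nuclei and 428 and 419.5 CPM in nuclei of subiculum or upper-layer cortex. In the control its septal interval (441 to 541 CPM) overlapped that of DG granule-like nuclei (536 to 582 CPM). Cdh12 was higher in nuclei of subiculum or upper-layer cortex, at 621 and 599.8 CPM, than in DG granule-like nuclei, at 317 and 314 CPM. The DG granule-like class was therefore the highest of the 6 compared classes for Cdh12 but not the highest of all neurons.

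**Figure D2:**
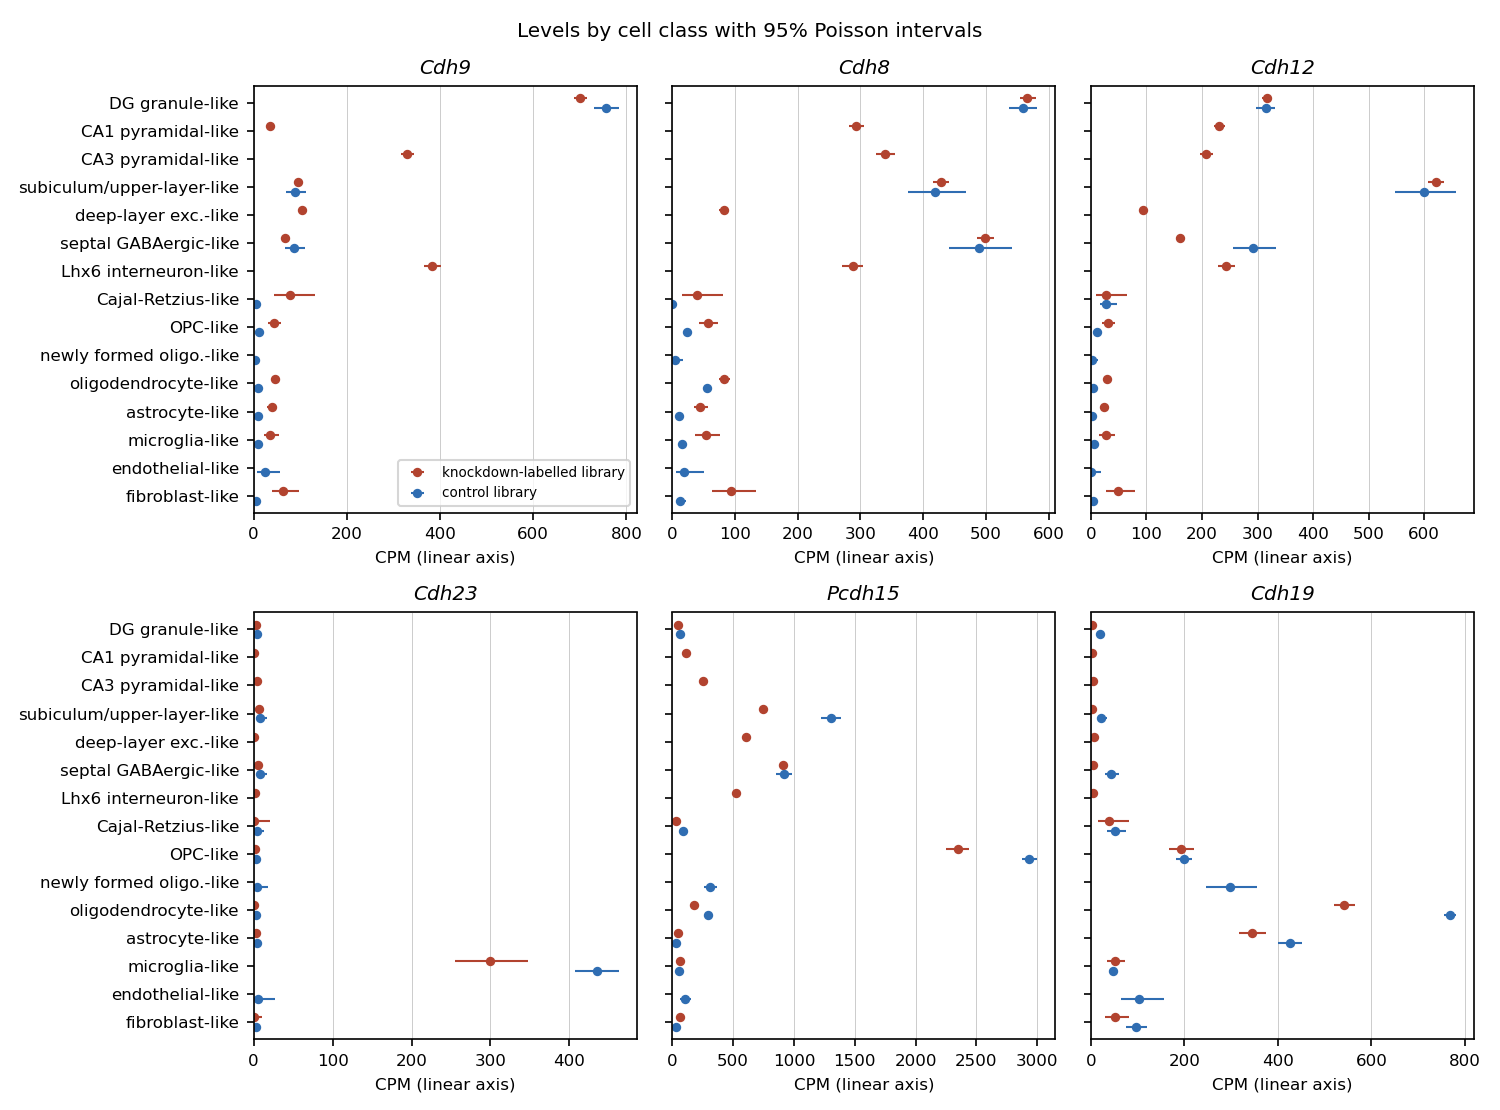
Levels of Cdh9, Cdh8, Cdh12, Cdh23, Pcdh15 and Cdh19 in CPM, on linear axes that start at 0, in every class with at least 50 nuclei; points are libraries and bars are exact 95% Poisson intervals. In DG granule-like nuclei Cdh9 lies at 701 and 757 CPM, and at 35.8 CPM in CA1 pyramidal-like nuclei, while Cdh23 lies at 299 and 434 CPM in microglia-like nuclei and at or below 7.70 CPM elsewhere.

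Cdh18 and Cdh6, the other type II cadherins at least 2-fold over the next class in both libraries, were highest in OPC-like nuclei among the 6 classes. Cdh18 stood at 171 CPM in the library labelled knockdown and 180.3 CPM in the control there, and next in DG granule-like nuclei at 60.6 and 70.6 CPM. Its highest levels lay in neurons outside the 6 classes, at 1113 CPM in deep-layer excitatory-like nuclei and at 746 and 982 CPM in septal GABAergic-like nuclei. Cdh6 stood at 147 and 178 CPM in OPC-like nuclei, but in DG granule-like nuclei at 2.76 and 0.954 CPM. Cajal-Retzius-like nuclei, early-born neurons of the outer hippocampal layers, held Cdh6 at 129.9 CPM (67 nuclei) and 108 CPM (163 nuclei), with intervals that overlapped those of the OPC-like class in the library labelled knockdown.

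The remaining type II genes were lower or spread over several classes. Cdh11 was between 124 and 185 CPM in DG granule-, astrocyte-, OPC- and fibroblast-like nuclei of both libraries, with fibroblast-like nuclei second among the 6 classes at 146 and 180.5 CPM. It was higher in deep-layer excitatory-like nuclei (483 CPM) and CA1 pyramidal-like nuclei (289 CPM). Cdh7 reached 119 CPM in Lhx6 interneuron-like nuclei and 99.5 and 200.3 CPM in septal GABAergic-like nuclei, against 21.3 and 6.44 CPM in DG granule-like nuclei. Cdh22 was at most 28.5 CPM in any of the 6 classes, and 56.7 and 47.5 CPM in septal GABAergic-like nuclei. Cdh24 was at most 18.1 CPM in the 6 classes and 38.2 CPM in CA3 pyramidal-like nuclei.

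Cdh10, Cdh19 and Cdh20 were the type II genes with their higher levels in oligodendrocyte-, OPC- and astrocyte-like nuclei among the 6 classes. Cdh19, known from glial and Schwann cell precursors, stood at 542 CPM in oligodendrocyte-like nuclei of the library labelled knockdown and 768 CPM in the control, then at 345 and 425 CPM in astrocyte-like and 192 and 199.6 CPM in OPC-like nuclei. It was 3.14 and 19.6 CPM in DG granule-like nuclei. Cdh20 stood at 671 and 742 CPM in OPC-like nuclei, 418 and 797 CPM in oligodendrocyte-like nuclei and 369 and 487 CPM in astrocyte-like nuclei, so that the order of the first 2 classes differed between the libraries. The same held for Cdh10, at 497 and 640.2 CPM in OPC-like and 472 and 685 CPM in oligodendrocyte-like nuclei. In the library labelled knockdown the Cdh10 intervals of these classes overlapped. Neurons outside the 6 classes held them too, since subiculum or upper-layer nuclei were at 339 and 361 CPM for Cdh10 and at 281 and 394 CPM for Cdh20, and septal GABAergic-like nuclei at 216 and 267 CPM for Cdh10. Most nuclei of the oligodendrocyte-like class came from different clusters in the 2 libraries. Cluster 4 held 66.1% of them in the library labelled knockdown and 2.16% in the control, where clusters 0, 2 and 3 held 35.0%, 30.1% and 21.6%.

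Cdh5, the cadherin of vessel walls, is the type II gene of the blood side. It stood at 205 CPM in endothelial-like nuclei of the control (98 nuclei) and at 97.1 and 73.0 CPM in fibroblast-like nuclei, and at most at 1.87 CPM in any other class with at least 50 nuclei. In the fibroblast-like class the summed level of the endothelial marker list was 646 and 297 CPM, and its part in the Cdh5 level was not tested.

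The type I cadherins were split between nervous tissue and its coverings. Cdh2, the N-cadherin of neural tissue, was found in every compared class, at 366 and 385 CPM in astrocyte-like, 227 and 228 CPM in DG granule-like and 188 and 219.9 CPM in OPC-like nuclei, and at 407 CPM in deep-layer excitatory-like nuclei. Cdh4, or R-cadherin, was 117 and 118 CPM in astrocyte-like nuclei but 802 and 1101 CPM in Cajal-Retzius-like nuclei. Cdh1, the E-cadherin of epithelia, was 45.5 and 83.6 CPM in fibroblast-like nuclei and at most 0.741 CPM in the other 5 compared classes. Within the control it was 217 CPM in fibroblast-like cluster 25 and 24.8 CPM in fibroblast-like cluster 19. Cdh3, or P-cadherin, stood at 78.3 and 122 CPM in choroid plexus epithelium-like nuclei, of which there were only 31 and 36, and at most at 5.31 CPM in the compared classes. Cdh15, the M-cadherin of muscle, stayed at or below 3.56 CPM in every compared class.

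Cdh13, a cadherin anchored to the membrane by lipid and without a tail for catenins, was high in OPC-like nuclei and in several kinds of neurons. It stood at 533 and 572 CPM in OPC-like nuclei and, in DG granule-like nuclei, at 375 and 343 CPM, with 586 CPM in Lhx6 interneuron-like and 417 and 422 CPM in septal GABAergic-like nuclei. In CA1 pyramidal-like nuclei it was 32.0 CPM. Microglia- and oligodendrocyte-like nuclei held it at 12.4 to 60.7 CPM.

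Cdh23 and Pcdh15, the partners of the tip link, were separated by class. Cdh23 stood at 299 CPM (255 to 348) in microglia-like nuclei of the library labelled knockdown and at 434 CPM (408 to 462) in those of the control, and at most at 7.70 CPM in any other class with at least 50 nuclei. At 1000 UMIs per nucleus a Cdh23 UMI was found in 25.5% and 31.6% of microglia-like nuclei, against none and 0.241% of oligodendrocyte-like nuclei. Pcdh15 was 60.5 and 52.2 CPM in the same microglia-like nuclei. It stood at 2346 and 2936 CPM in OPC-like nuclei, where 91.2% and 91.3% of nuclei held a UMI at that depth, and Cdh23 there was 1.96 and 2.96 CPM. Neurons outside the 6 classes also held Pcdh15, at 911 and 915 CPM in septal GABAergic-like nuclei and 747 and 1302 CPM in subiculum or upper-layer nuclei, while DG granule-like nuclei were at 47.2 and 62.2 CPM.

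The upstream windows of these 2 genes and of Cdh6 are printed in the same way. Among the 6 classes, Cdh6 in OPC-like nuclei stood 9.25- and 6.12-fold over the next class. Genes highest of the 6 in microglia-like and OPC-like nuclei can thus be set side by side. Cdh23 lies at chr10:60696491-60696740 on the minus strand, Pcdh15 at chr10:73821617-73821866 on the plus strand and Cdh6 at chr15:13173676-13173925 on the minus strand (GRCm38.p6, RefSeq), and capitals mark matches to the same 4 motifs.
Cdh23: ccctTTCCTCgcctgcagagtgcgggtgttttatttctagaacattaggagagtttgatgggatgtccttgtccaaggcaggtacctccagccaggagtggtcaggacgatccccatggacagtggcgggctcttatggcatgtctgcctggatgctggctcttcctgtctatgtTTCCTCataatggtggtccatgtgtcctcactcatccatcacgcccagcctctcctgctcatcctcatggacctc
Pcdh15: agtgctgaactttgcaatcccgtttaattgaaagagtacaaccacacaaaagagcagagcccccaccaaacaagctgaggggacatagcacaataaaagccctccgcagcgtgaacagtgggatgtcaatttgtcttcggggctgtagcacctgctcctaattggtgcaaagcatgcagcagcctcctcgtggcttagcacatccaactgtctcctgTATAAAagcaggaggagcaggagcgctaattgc
Cdh6: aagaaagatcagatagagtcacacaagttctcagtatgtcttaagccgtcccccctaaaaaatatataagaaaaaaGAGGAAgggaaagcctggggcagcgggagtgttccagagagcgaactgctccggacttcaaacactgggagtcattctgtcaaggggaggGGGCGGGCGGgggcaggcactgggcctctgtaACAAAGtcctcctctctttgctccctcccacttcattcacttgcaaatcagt
The Cdh23 window held 2 ETS core matches on the opposite strand and 5 CpG dinucleotides. The Pcdh15 window held 1 TATA box and 6 CpG dinucleotides. The Cdh6 window held 2 overlapping GC boxes, 1 ETS core and 1 SOX core, with 6 CpG dinucleotides.

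The delta protocadherins included Pcdh9, which was among the 3 members with the most UMIs in each of the 6 classes, at 7216 and 9543 CPM in oligodendrocyte-like, 4103 and 5011 CPM in OPC-like and 2142 and 2720.3 CPM in astrocyte-like nuclei, and at 719 and 645 CPM in fibroblast-like nuclei. Pcdh7 stood at 745 and 999 CPM in OPC-like, 574 and 746 CPM in astrocyte-like and 470.4 and 722 CPM in fibroblast-like nuclei. In the fibroblast-like class of the control Pcdh7 was 2288 CPM in cluster 25 and 32.5 CPM in cluster 19, so that level rested on 1 of the 2 clusters. Pcdh11x, from the X chromosome, stood at 534 and 758 CPM in OPC-like nuclei and at 251 and 193 CPM in oligodendrocyte-like nuclei.

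Pcdh19, another X-linked gene and a known epilepsy gene, was highest in DG granule-like nuclei at 109 and 116 CPM. The next compared class was at 33.4 and 28.5 CPM. Outside the 6 classes Pcdh19 stood at 65.5 CPM in Lhx6 interneuron-like nuclei of the library labelled knockdown. In endothelial-like nuclei of the control it was 78.2 CPM, with an interval that overlapped that of DG granule-like nuclei. Pcdh20, a related protocadherin, was also highest in DG granule-like nuclei, at 55.9 and 53.9 CPM. It was 37.0 CPM in CA3 pyramidal-like nuclei of the library labelled knockdown. Pcdh8, known as an activity-induced synaptic protein, was highest in DG granule-like nuclei too, at 35.3 and 40.8 CPM. It stood less than 2-fold over the next class in the library labelled knockdown. Pcdh17 was level between OPC-like nuclei (295 and 306 CPM) and DG granule-like nuclei (279 and 274 CPM), with overlapping intervals in both libraries. Pcdh10 was level between OPC-like nuclei (177 and 149 CPM) and astrocyte-like nuclei (168 and 147 CPM), again with overlapping intervals. Pcdh1 ranged over 3.98 to 45.8 CPM in the compared classes, with 52.0 CPM in CA3 and 50.9 CPM in CA1 pyramidal-like nuclei of the library labelled knockdown, and Pcdh18 did not pass 5.31 CPM in any compared class.

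Newly formed oligodendrocyte-like nuclei, 65 in the control, stood between OPC- and oligodendrocyte-like nuclei in lineage and carried their own mix of members. From OPC-like to newly formed to oligodendrocyte-like nuclei of the control, Pcdh15 went from 2936 to 312 to 292 CPM and Cdh13 from 572 to 283 to 21.8 CPM. Pcdh7 was highest in the newly formed nuclei, at 999, 2587 and 49.8 CPM along the same order, and so were Cdh20 (742, 1459 and 797 CPM), Cdh10 (640.2, 1371 and 685 CPM) and Pcdh17 (306, 548 and 57.0 CPM). Cdh19 (199.6, 297 and 768 CPM) and Pcdh9 (5011, 5741 and 9543 CPM) were highest in the oligodendrocyte-like nuclei. Only 27 newly formed nuclei came from the library labelled knockdown, under the minimum of 50, and their levels were 2013 CPM for Pcdh7, 1450.5 CPM for Cdh20 and 618 CPM for Pcdh17.

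**Figure D3:**
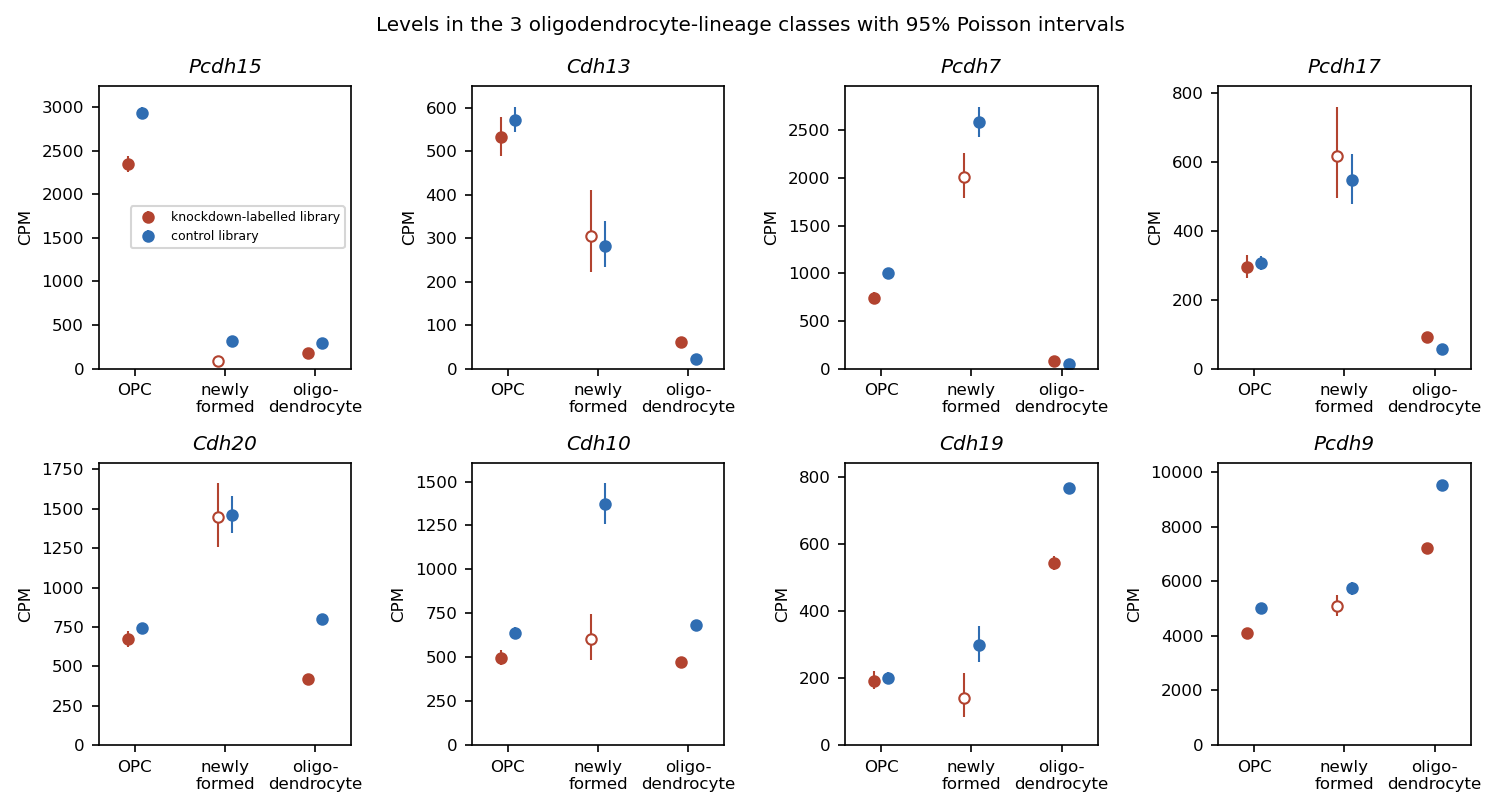
Levels in CPM, on linear axes that start at 0, of 8 members in OPC-like, newly formed oligodendrocyte-like and oligodendrocyte-like nuclei of both libraries, with exact 95% Poisson intervals; open points rest on 27 nuclei, under the minimum of 50. Pcdh7 is highest in the newly formed nuclei of the control at 2587 CPM, and Pcdh15 in the OPC-like nuclei at 2936 CPM.

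Several members lie side by side in the genome, some with different highest classes and some with the same. All 31 matched the RefSeq gene table, and order along the chromosome was taken from it without coordinates. On chromosome 15, Cdh6, Cdh9, Cdh10 and Cdh12 follow each other with no other protein-coding gene between, and Cdh18 follows after 1 gene. Of these, among the 6 compared classes, Cdh9 and Cdh12 were highest in DG granule-like nuclei and Cdh6 and Cdh18 in OPC-like nuclei. Outside the 6 classes, Cdh12 was higher in subiculum or upper-layer nuclei, and Cdh18 in deep-layer excitatory-like and septal GABAergic-like nuclei. Cdh8, Cdh11 and Cdh5 are neighbours on chromosome 8, with DG granule-like, OPC-like and fibroblast-like nuclei as their highest of the 6 classes. Cdh3 and Cdh1, also neighbours on chromosome 8, were both highest in fibroblast-like nuclei of the control among the 6 classes, at 5.31 and 83.6 CPM. Cdh7 and Cdh19 are neighbours on chromosome 1, and Pcdh20 and Pcdh9 on chromosome 14.

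A single OPC-like nucleus held more members than a nucleus of any other compared class. At 1000 UMIs per nucleus, 5.39 members (SD over nuclei 1.70) were detected in OPC-like nuclei of the library labelled knockdown and 5.83 (SD 1.57) in those of the control. DG granule-like nuclei held 3.52 and 3.55, astrocyte-like 3.36 and 3.56 and oligodendrocyte-like 2.98 and 3.10. Fibroblast-like nuclei held 1.36 and 1.21 and microglia-like nuclei 1.32 and 0.977. Without thinning, the means were 9.50 and 10.5 in OPC-like and 9.57 and 10.3 in DG granule-like nuclei, which are deeper. Thinning left out 13 nuclei at most in any class and library. The share of all UMIs that belonged to members was 1.11% and 1.33% in OPC-like, 0.986% and 1.27% in oligodendrocyte-like nuclei. In microglia-like nuclei it was 0.224% and 0.150%.

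Levels were then compared between the libraries within each class. A member was measured where it had at least 50 UMIs in the class over both libraries, and a difference of at least 1.5-fold was counted, with the log2 ratio taken as the library labelled knockdown over the control. In DG granule-like nuclei, the neuronal class, 7 of 25 measured members passed, beside 15% of the 13508 genes measured there. Of the 7, 3 were higher (9.25% of all genes) and 4 lower (5.77%), and the median log2 ratio was -0.01 over the members and 0.05 over all genes. The 3 type II genes with their highest level of the 6 classes here were not among the 7. Cdh8 had a log2 ratio of 0.02, Cdh12 of 0.01 and Cdh9 of -0.11.

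The DG granule-like members past 1.5-fold were mostly genes with higher levels elsewhere. Cdh7 stood at 21.3 CPM in the library labelled knockdown and 6.44 CPM in the control (log2 ratio 1.70, 1.15 to 2.35). Cdh22, at 26.7 and 12.6 CPM, had a log2 ratio of 1.07, and Pcdh10, at 18.7 and 10.7 CPM, one of 0.79. On the lower side, Cdh19 stood at 3.14 and 19.6 CPM, a log2 ratio of -2.63 (-3.21 to -2.09), and Cdh20 at 14.6 and 42.7 CPM, one of -1.55. Pcdh7 stood at 148 and 238 CPM, a log2 ratio of -0.68 (-0.79 to -0.57), and Cdh23 at 2.61 and 4.53 CPM, with an interval that included no difference. Over whole libraries, Pcdh7 differed in the opposite direction, while the other 6 differed in the same direction.

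Oligodendrocyte markers moved with 2 of these genes. In the same DG granule-like nuclei the 11 markers of oligodendrocytes summed to 534 CPM in the library labelled knockdown and 1774 CPM in the control, 10 of them at least 1.5-fold lower, and none was at 0 in either. Oligodendrocyte-like nuclei hold Cdh19 and Cdh20 at 418 to 797 CPM. They hold Cdh10 in the same range, and its log2 ratio in DG granule-like nuclei was -0.33, within 1.5-fold. The 12 microglia markers, which moved with Cdh23, summed to 104 and 208 CPM in these nuclei, 11 of them at least 1.5-fold lower. In the same nuclei the neuronal marker lists, with 33 of 62 genes at least 1.5-fold higher and 3 lower, summed to 6014 and 5915 CPM. The part of these markers' RNA in the DG granule-like differences was not tested.

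In oligodendrocyte-like nuclei, 21 of 26 measured members passed 1.5-fold, beside 32.2% of 13560 genes. Of these, 17 were higher in the library labelled knockdown (24.9% of all genes) and 4 lower (7.34%), with a median log2 ratio of 0.70 over the members and 0.15 over all genes. Under another scaling (TMM, trimmed mean of M-values), which moved every ratio of this class by -0.25, the split was 11 higher and 7 lower. Members of neurons led the higher side. Cdh9 stood at 46.8 and 9.03 CPM (log2 ratio 2.37, 2.07 to 2.68), Cdh12 at 29.3 and 4.46 CPM (2.71), Cdh18 at 33.4 and 6.24 CPM (2.42) and Cdh7 at 9.77 and 0.836 CPM (3.52). Pcdh19 and Pcdh20 both had a log2 ratio of 2.07. The other higher members, with log2 ratios of 0.60 to 1.84, were Cdh2, Cdh4, Cdh8, Cdh11, Cdh13, Cdh22, Cdh24, Pcdh1, Pcdh7, Pcdh8 and Pcdh17.

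The lower members of oligodendrocyte-like nuclei were Cdh20, Pcdh15, Cdh6 and Cdh23. Cdh20 stood at 418 CPM in the library labelled knockdown and 797 CPM in the control, a log2 ratio of -0.93. Pcdh15 stood at 181 and 292 CPM (-0.69, -0.80 to -0.58) and Cdh6 at 15.9 and 29.0 CPM (-0.86), while Cdh23 had 2 UMIs in the library labelled knockdown and 53 in the control. The 12 microglia markers summed to 131 and 303 CPM in the same nuclei, all 12 at least 1.5-fold lower, and their part in the Cdh23 difference was not tested. Within cluster 4 alone, which held most oligodendrocyte-like nuclei of the library labelled knockdown but 2.16% of those of the control, Cdh20 was 336 and 406 CPM (-0.28) and Cdh19 569 and 552 CPM (0.04). Cdh9 in that cluster was 48.1 and 17.8 CPM (1.30).

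Many genes on the neuronal marker lists were higher in the library labelled knockdown in each of the 6 classes. Their sum was higher in some classes and lower in others. Of the 62 genes on the neuronal marker lists, 47 were at least 1.5-fold higher in oligodendrocyte-like nuclei of that library and 47 in microglia-like nuclei. The counts were 40 in astrocyte-like, 33 in OPC-like, 43 in fibroblast-like and 33 in DG granule-like nuclei. They had no UMI minimum, unlike the shares of all genes, and are not compared with those. With 0.5 UMI added, a gene at 0 in both libraries counted as higher where the control's class total was at least 1.5-fold larger. Such genes were Htr3a, Lct, Syt6 and Tdo2 in fibroblast-like, Htr3a, Rspo1, Sncg and Tdo2 in OPC-like and Htr3a in microglia-like nuclei. The counts of these classes therefore include undetected genes. All 62 genes were also summed. Their summed levels were 3047 and 2533 CPM in oligodendrocyte-like, 3535 and 3022 CPM in microglia-like, 5487 and 5636 CPM in astrocyte-like, 8109 and 8269 CPM in OPC-like and 4252 and 3979 CPM in fibroblast-like nuclei. In astrocyte-like and OPC-like nuclei the sum was thus lower in the library labelled knockdown. The lists are not confined to neurons. Sox6 and Nxph1 were among the 10 leading genes of the OPC-like cluster, and Rorb of the astrocyte-like cluster. The sums there therefore do not measure neuronal RNA alone. Syt1, which is not listed, was higher in the library labelled knockdown, at 475 and 62.9 CPM in OPC-like and 461 and 54.2 CPM in astrocyte-like nuclei. Sncg was the 1 listed gene at 0 in oligodendrocyte-like nuclei of the control, and none was at 0 in the other library. All 21 oligodendrocyte-like members past 1.5-fold differed in the same direction over whole libraries. The part of neuronal RNA in these differences was not tested. When the library's own profile was subtracted from each class at the level of other classes' markers, 10 of 16 measured members passed in oligodendrocyte-like nuclei, 4 higher and 6 lower.

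**Figure D4:**
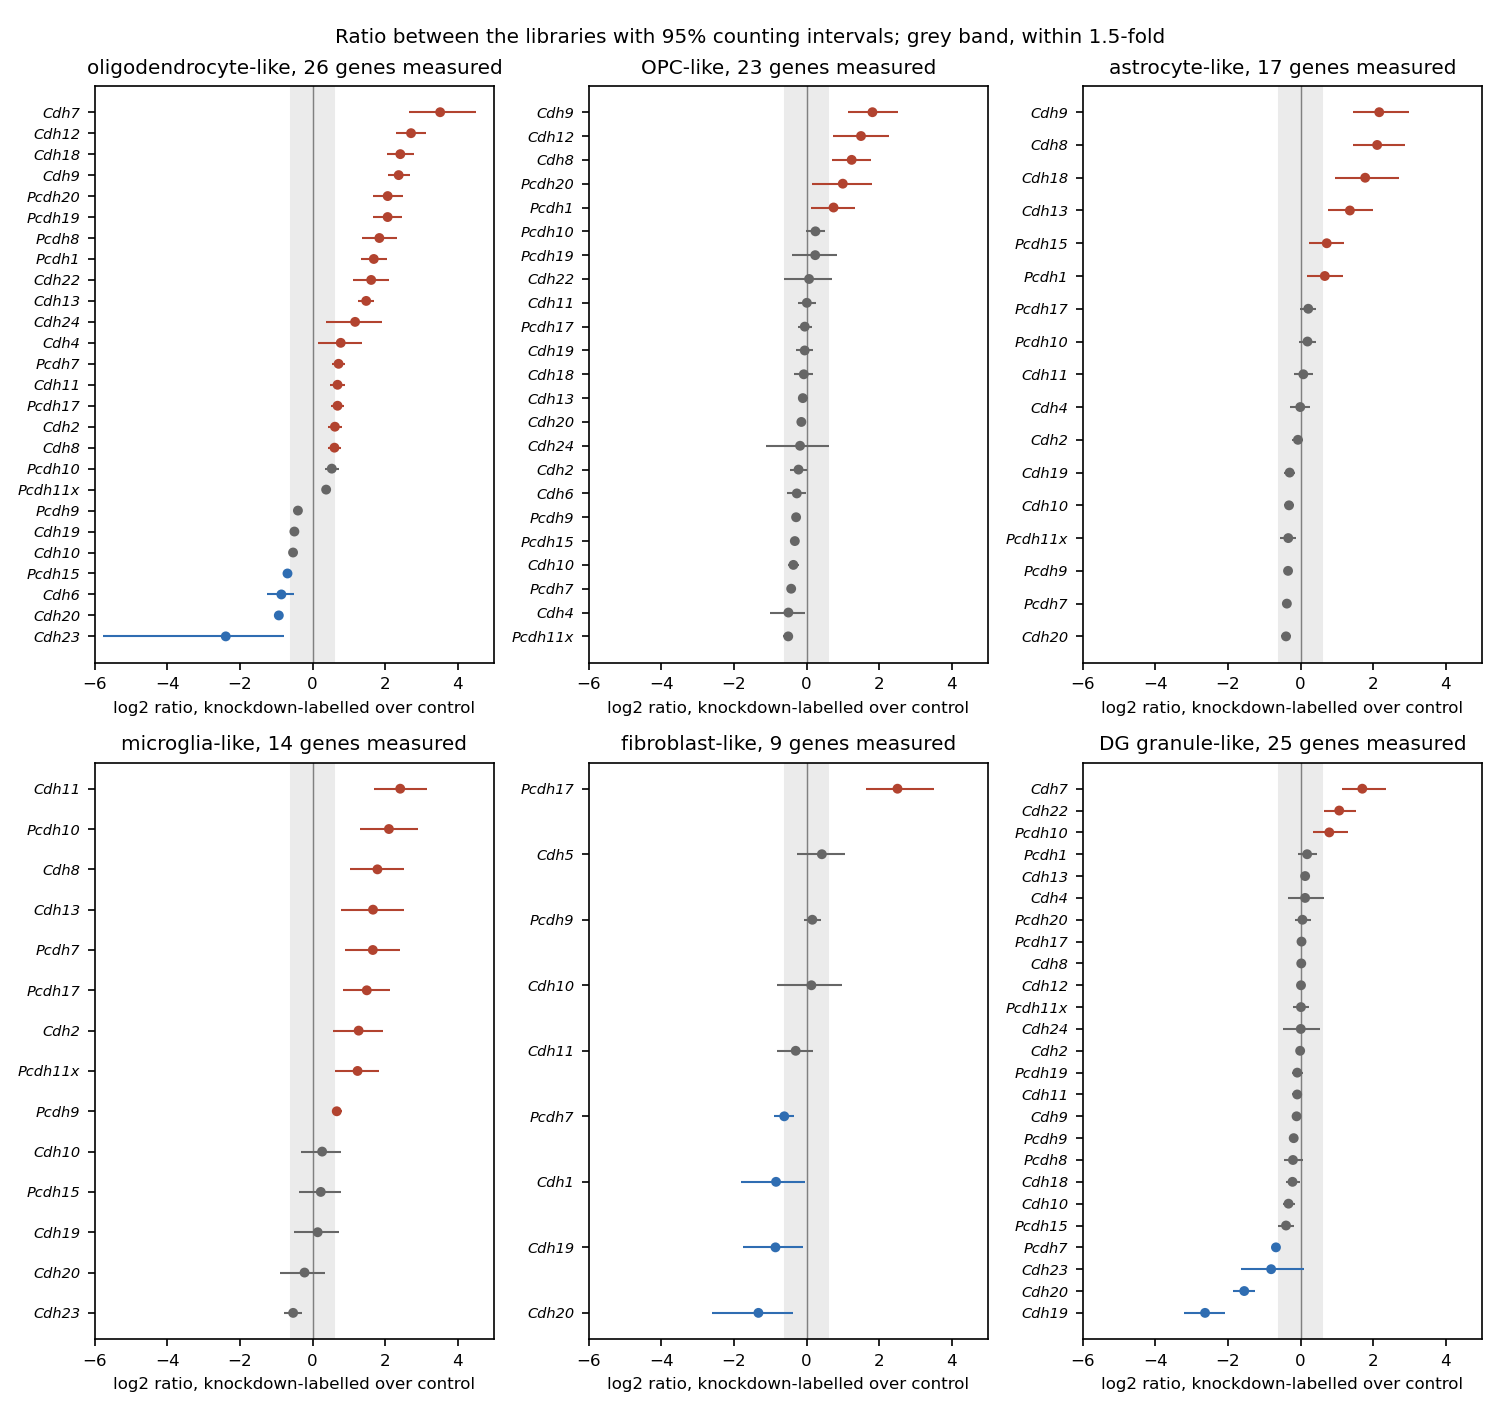
Log2 ratio between the libraries (positive where the one labelled knockdown is higher) for each measured member in each of the 6 classes, with exact conditional binomial 95% intervals; the grey band covers differences under 1.5-fold, red points lie above it and blue points below. In DG granule-like nuclei 18 of 25 members lie in the band, and in oligodendrocyte-like nuclei 17 of 26 lie above it.

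In microglia-like nuclei, 9 of 14 measured members passed, all higher, beside 27.8% of 8510 genes (16.7% of all genes higher, 11.2% lower). The median log2 ratio was 1.25 over the measured members and -0.0036 over all genes, and under TMM scaling, which moved it by -0.17, 8 were higher and 1 lower. Cdh11 stood at 71.2 CPM in the library labelled knockdown and 13.3 CPM in the control (log2 ratio 2.42, 1.70 to 3.16), Pcdh10 at 53.4 and 12.4 CPM (2.10) and Cdh8 at 53.4 and 15.5 CPM (1.79). Cdh2, Cdh13, Pcdh7, Pcdh9, Pcdh11x and Pcdh17 had log2 ratios of 0.67 to 1.67. Cdh23, the member that marks the class, stayed just within 1.5-fold at -0.54, and was the 1 lower member under TMM scaling. Cluster 14 held 86.7% of the microglia-like nuclei of the library labelled knockdown and cluster 12 held 67.1% of those of the control, and within cluster 14 Cdh23 was 250.1 and 225 CPM (0.16, -0.20 to 0.50). For 8 of the 9, all but Pcdh9, each library gave between 22 and 65 UMIs. After thinning to 1000 UMIs per nucleus 2 of the 4 members still measured passed. When the library's own profile was subtracted as above, all 9 fell under the floor of 3 UMIs and none passed. That profile came from all barcodes, nuclei included. The loss therefore cannot show what free RNA contributed, which was not measured.

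In astrocyte-like nuclei, 6 of 17 measured members passed, all higher, beside 20.3% of 9543 genes (14% of all genes higher, 6.26% lower). Cdh9 stood at 38.7 and 8.47 CPM (log2 ratio 2.17), Cdh8 at 44.5 and 10.2 CPM (2.11), Cdh18 at 25.1 and 7.20 CPM (1.78) and Cdh13 at 39.3 and 15.2 CPM (1.36). Pcdh15, at 50.3 and 30.5 CPM, had a log2 ratio of 0.72, which turned to -0.29 with doublets kept. Pcdh1, at 45.8 and 28.8 CPM, had one of 0.67. The members with most UMIs in the class, Pcdh9, Pcdh7 and Cdh10, stayed within 1.5-fold. When every nucleus was thinned to 1000 UMIs, all 6 fell under the minimum of 50 UMIs, and none of the 11 members still measured passed.

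In OPC-like nuclei, 5 of 23 measured members passed, all higher, beside 18.4% of 9341 genes (11.6% of all genes higher, 6.83% lower). Cdh9 stood at 43.2 and 12.2 CPM (log2 ratio 1.82), Cdh12 at 30.4 and 10.7 CPM (counting interval 0.72 to 2.28), Cdh8 at 56.9 and 24.1 CPM (1.24), Pcdh20 at 23.5 and 11.8 CPM (1.00) and Pcdh1 at 38.3 and 23.0 CPM (0.74). Under TMM scaling 5 were higher and 2 lower. Pcdh15, Pcdh7 and Pcdh9, the members with most UMIs in the class, stayed within 1.5-fold without that scaling. So did Cdh6, Cdh18 and Pcdh11x, which like Pcdh15 stood at least 2-fold over the next class in both libraries. After thinning the 5 fell under the minimum of 50 UMIs, and none of the 15 members still measured passed.

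In fibroblast-like nuclei, 5 of 9 measured members passed, beside 28.0% of 4799 genes, 1 of them higher (12.5% of all genes) and 4 lower (15.5%). Pcdh17 stood at 115 CPM in the library labelled knockdown and 19.9 CPM in the control, a log2 ratio of 2.51. Cdh20 stood at 27.3 and 71.7 CPM (-1.33), Cdh19 at 51.6 and 95.6 CPM (-0.86), Cdh1 at 45.5 and 83.6 CPM (-0.84) and Pcdh7 at 470.4 and 722 CPM (-0.61). In this class the fibroblast marker list summed to 2671 and 4512 CPM, the list of pericytes and smooth muscle to 1757 and 711 CPM and the oligodendrocyte list to 947 and 3293 CPM. The part of these lists in the 5 differences was not tested.

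Genes that work with cadherins were counted in the same way. Of 17 catenins and junction partners, which tie cadherins to actin or stand beside them at junctions, 4 of 17 measured passed 1.5-fold in oligodendrocyte-like nuclei, all higher (23.5%, beside 24.9% of all genes higher): Vinculin (Vcl, log2 ratio 1.09), Nectin2 (1.12), Nectin3 (0.78) and delta-2 catenin (Ctnnd2, 0.67). In DG granule-like nuclei 3 of 16 passed (15% of all genes), among them alpha-1 catenin (Ctnna1, -0.65) and plakoglobin (Jup, -1.16), both lower. In microglia-like nuclei 6 of 13 passed (27.8% of all genes), 3 in each direction, with Afdn at 1.12, Ctnna3 at 1.02, Ctnna2 at 0.85, Jup at -1.93 and Adam10 at -0.73. In the other classes 2 of 14 passed in astrocyte-like (Ctnna3, -1.14), 3 of 16 in OPC-like (Pkp4, -0.62) and 1 of 12 in fibroblast-like nuclei (Ctnna3, 0.96), beside 20.3%, 18.4% and 28.0% of all genes. The median log2 ratio over the list was -0.05 in oligodendrocyte-like and -0.08 in DG granule-like nuclei. The difference between this list and the members was not tested.

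Of 19 other genes with cadherin repeats, such as the Fat, Celsr and calsyntenin (Clstn) genes, 8 of 9 measured were higher in oligodendrocyte-like nuclei, beside 24.9% of all genes, and for 7 of the 8 the interval left out no difference. Clstn3 had a log2 ratio of 3.44, Clstn2 of 1.94, Fat3 of 1.72, Celsr3 of 1.61, Fat4 of 1.19 and Celsr2 of 0.92. In DG granule-like nuclei 2 of 11 were higher (9.25% of all genes), Dchs2 (1.07) and Clstn3 (0.76). In microglia-like nuclei 2 of 4 were higher (Clstn3, 3.63, and Clstn2, 1.04), beside 16.7% of all genes, and in astrocyte-like nuclei 4 of 8, beside 14%, with Clstn3 at 2.91, Clstn2 at 1.25 and Celsr2 at 0.98. In OPC-like nuclei 3 of 8 passed, Clstn3 higher (1.29) and Fat1 lower (-0.78) among them, beside 18.4% of all genes in either direction. In fibroblast-like nuclei 1 of 3 passed, Clstn2 (2.34), beside 12.5% of all genes higher. Clstn2 and Clstn3 belong to the calsyntenins, which are postsynaptic proteins.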

How the data were processed

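Single-nucleus RNA was measured in 2 libraries, 1 per group, with the 10x Genomics 3' V3 kit after sorting of stained nuclei, per the labels' protocols. The deposited values are unnormalized counts of UMIs for each gene in each barcode. Per the file headers they came from Cell Ranger 9.0.1. Per the submitters' processing notes the build was GRCm39, and bcl2fastq 5.0.1 and Seurat 4.1.0 were also used. How barcodes were called and whether intronic reads were counted was not stated.

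From these counts, nuclei with at least 500 genes, 800 UMIs and under 5% mitochondrial UMIs were kept. Scrublet marked 1070 doublets (7.97%) in the library labelled knockdown. In the control its automatic threshold marked 0.016%, so the top scores at the expected rate were removed instead (1332 nuclei, 10.6%). Both libraries were clustered together without integration (2000 variable genes without the members, 30 components, 15 neighbours, Leiden resolution 1). Clusters were named from 225 markers of 28 classes, with criteria that were settled once a first clustering was at hand. The members, gene lists and markers were chosen with earlier results of these data known.

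UMIs were summed per class and library and scaled to the class total (CPM), and exact Poisson intervals were computed. Percentages of nuclei were taken at 1000 UMIs per nucleus. Log2 ratios had 0.5 UMI added to each sum and exact conditional binomial intervals. Members named with values were the 3 with most UMIs in each compared class, those at least 2-fold over the next class in both libraries, and those past 1.5-fold between libraries with an interval that leaves out no difference. Other members were given by level so that all are accounted for. At most 6 partner genes per class and list were named, by size. Tools were Python 3.11.15, scanpy 1.11.5, numpy 2.4.6, scipy 1.17.1, pandas 2.3.3, scikit-learn 1.9.0, leidenalg 0.10.2, igraph 0.11.9, matplotlib 3.10.9 and, for TMM factors only, edgeR 4.0.16 in R 4.3.3. Alternatives covered the filters, doublets, clustering, thinning, scaling, free RNA, sex of nuclei and thresholds. The alternative named free RNA subtracted a share of the library's profile over all barcodes, set by the level of other classes' markers. Free RNA itself was not measured.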

Additional observations from a re-analysis of the deposited data

Results flagged for a closer look

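Pcdh15 and Pcdh7 passed 1.5-fold in opposite directions in different classes of the same 2 libraries. Pcdh15 was lower in the library labelled knockdown in oligodendrocyte-like nuclei, with a log2 ratio of -0.69, and higher in astrocyte-like nuclei, with a log2 ratio of 0.72. The second direction turned with doublets kept (-0.29), was 0.56 on 42 UMIs, under the minimum of 50, after thinning to 1000 UMIs per nucleus, and gave no value with free RNA subtracted. Pcdh7 was higher in oligodendrocyte-like nuclei (0.72) and microglia-like nuclei (1.66), and lower in DG granule-like nuclei (-0.68) and fibroblast-like nuclei (-0.61). With 1 library per group the difference between classes was not tested in either gene.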

How the results depend on the processing

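The number of members with the same highest class stayed between 19 and 23 over the 12 alternatives that gave a value, and none of these differed from 22 by more than 1.5 times. Centring each library before clustering gave no value for it. Counts of members past 1.5-fold held less well. With nuclei thinned to 1000 UMIs they were 4 in DG granule-like (7 as reported), 2 in microglia-like (9), 0 in astrocyte-like (6), 0 in OPC-like (5) and 1 in fibroblast-like nuclei (5), over fewer measured members. After subtraction of the library's own profile, the alternative named free RNA, they were 10 in oligodendrocyte-like (21), 4 in DG granule-like and 0 in microglia-like nuclei. They were 1 in astrocyte-like, 9 in OPC-like and 3 in fibroblast-like nuclei, and 36 ratios with a subtracted sum under 3 UMIs were left out. In male nuclei they were 4 in DG granule-like, 1 in microglia-like, 1 in astrocyte-like, 0 in OPC-like and 3 in fibroblast-like, and in female nuclei 3 in microglia-like, 3 in astrocyte-like, 1 in OPC-like and 1 in fibroblast-like. With a minimum of 200 UMIs they were 1 in microglia-like, 0 in astrocyte-like, 0 in OPC-like and 1 in fibroblast-like. At 2-fold they were 12 in oligodendrocyte-like, 4 in DG granule-like, 3 in OPC-like and 2 in fibroblast-like. With doublets kept they were 8 in OPC-like and 13 in fibroblast-like, and the looser filter and resolution 0.5 each gave 3 in fibroblast-like. Thinning and the higher minimum leave fewer members to count, and the cause of the other shifts was not tested.

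Members detected per nucleus at 2000 UMIs, in the library labelled knockdown and the control, were 4.44 and 4.25 in oligodendrocyte-like, 5.45 and 5.60 in DG granule-like, 2.58 and 1.71 in microglia-like, 5.29 and 5.26 in astrocyte-like, 7.91 and 8.04 in OPC-like and 2.43 and 1.89 in fibroblast-like nuclei. With doublets kept they were 1.23 in microglia-like and 5.63 in OPC-like nuclei of the control, and 1.90 and 1.43 in fibroblast-like nuclei; the stricter filter gave 3.09 in oligodendrocyte-like nuclei of the library labelled knockdown. Log2 ratios that reversed were Pcdh17 in oligodendrocyte-like (-0.53) and Pcdh10 in DG granule-like nuclei (-1.97) with free RNA subtracted, Pcdh9 in microglia-like nuclei under the stricter filter (-0.017) and with doublets kept (-0.94), Pcdh15 in astrocyte-like nuclei with doublets kept (-0.29) and Pcdh20 in OPC-like male nuclei (-0.0074). No paired analysis was possible because each group has 1 library. Members under 50 UMIs in a class could not be compared.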
